A study of Mus musculus with 6 samples.

Results

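The genes described here encode the proteins that give the red blood cell its membrane skeleton and surface: spectrins and their anchors, the actin junction, blood group carriers, channels and transporters, 3 antigens that mark erythroid maturation, and 3 soluble proteins of the same cell. The set has 34 named genes. All 34 had at least 1 probe on the array, 79 probes in all, and 61 of these probes were detected (detection p below 0.05 against negative control beads) on at least 3 of the 6 arrays. They gave 33 measured genes of 12262 in all. The gene left out was Epb4.2.

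Total RNA of mouse fetal liver at E13.5, an age at which the liver is the main site of red cell formation, came from a C57/Bl6:129Sv background and was hybridised to 6 Illumina bead arrays, all on 1 chip. In the 3 double transgenic livers (R26-LSL-KITD816V:Vav-iCre) the KITD816V transgene in the ROSA26 locus was combined with a Cre recombinase under the control of Vav, a gene of blood cells. KITD816V is a form of the stem cell factor receptor known to signal without its ligand. The 3 controls carried 1 of the transgenes each: Vav-iCre alone in control replicate 1, and R26-LSL-KITD816V alone in control replicates 2 and 3. Whether each array held a separate liver is not stated in the labels, so the p-values cover the spread among arrays, which may be technical in part.

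The red cell membrane hangs on a flexible meshwork of spectrin tetramers under the lipid bilayer. Ankyrin and the Epb4.2 product tie spectrin to band 3, the chloride and bicarbonate exchanger, and protein 4.1, adducin, dematin, tropomyosin and tropomodulin hold the spectrin ends on short actin filaments. Erythroblasts of the fetal liver assemble this skeleton as they mature, and they lose surface adhesion proteins such as CD44 over the same steps. Inherited loss of several of these proteins is known to cause spherocytosis or elliptocytosis.

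Detected probes made up between 38.1% and 39.5% of each array. Each level given is a log2 intensity after normalization. A change is the double transgenic mean minus the control mean, tested with limma. A call means an adjusted p below 0.05 (Benjamini-Hochberg over all 12262 genes). Levels of different genes cannot be set against each other, because each probe has its own brightness. The tissue carried its own markers: Hba-a1, an adult alpha globin, stood at 14.93 ± 0.06 in controls (SD, n = 3), and Afp, the fetal plasma protein of hepatoblasts, at 13.04 ± 0.20. Kit, whose probe may or may not read the transgene, was at 9.21 ± 0.29 in controls and at 9.98 ± 0.31 in the other group (adjusted p = 0.0817). Controls sat on the first positions of the chip and double transgenic livers on the last, so position and group cannot be told apart. Since whole liver was measured, fewer erythroid cells and less RNA per cell cannot be told apart either.

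Most red cell membrane genes were not called. Of the 33 measured genes 2 fell, none rose and 31 did not pass. The genes that fell were Mpp1, which encodes the palmitoylated protein p55, and Aqp1, the water channel, at 2.11-fold and 1.88-fold lower levels. The members' share of calls was 6.06%, and 8.95% of all genes tested were called (6.42% downward and 2.53% upward). At an unadjusted p below 0.05 there were 9 members (27.3%, against 22.8% of all genes). The means leaned downward: 25 of the 33 genes had a lower mean in double transgenic livers (75.8%, against 42.4% of all genes), and the median change was -0.33, against 0.07 for all genes. That median moved to -0.14 without double transgenic replicate 1 and to -0.16 without replicate 1 of both groups. A lower mean was also found in 70% of 20 erythroid markers outside the membrane. For other red cell surface proteins and transporters the share was 55.8%, and for other membrane skeleton genes 48.1%.

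**Figure D1:**
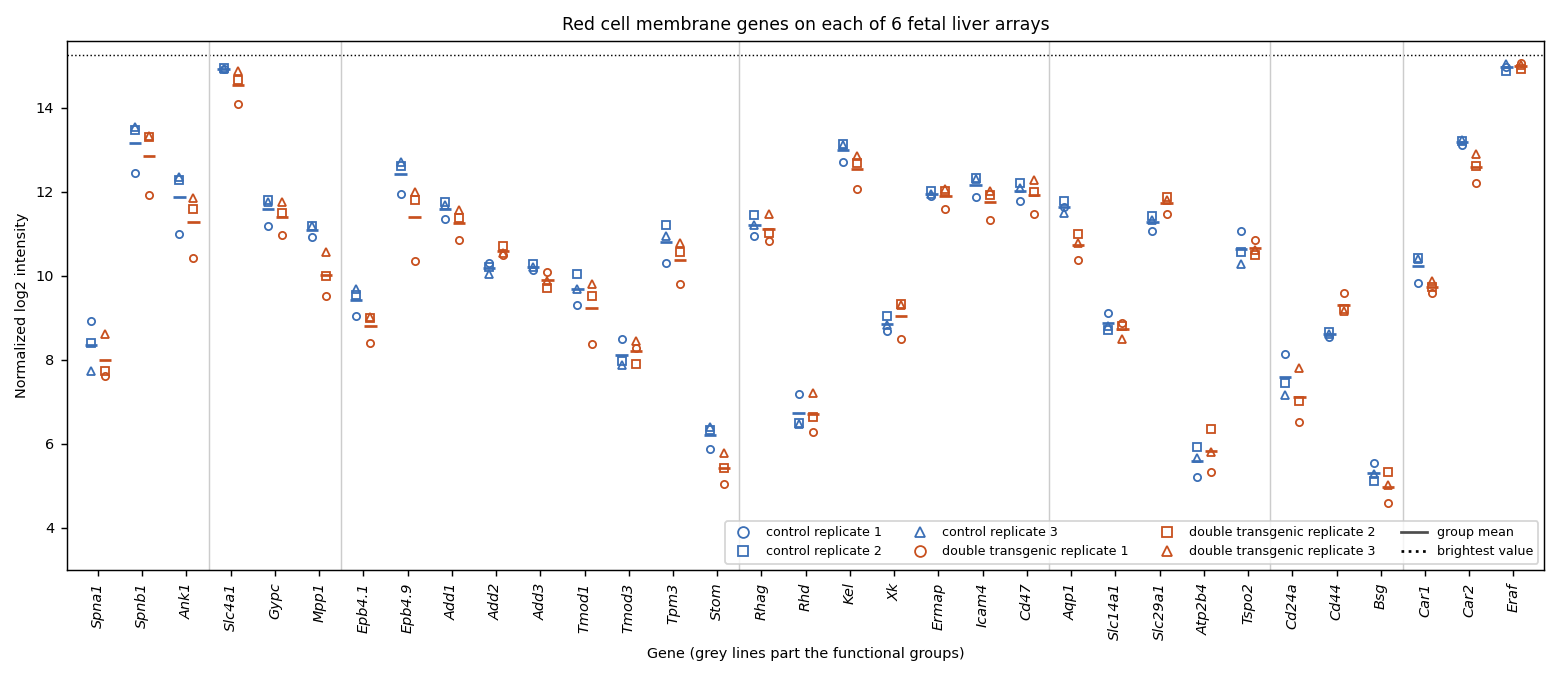
Normalized log2 intensity (vertical axis) of each measured red cell membrane gene (horizontal axis, by functional group) on every array, controls in blue and double transgenic livers in orange, with short lines for group means and a dotted line at the brightest value of 15.27. Replicate 1, drawn as circles, is the lowest array of its group for many genes, and Slc4a1 and Eraf lie next to the dotted line. Heights of different genes are not comparable.

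The same replicate numbers occur in both groups, and the arrays numbered 1 deviated together (correlation across genes 0.54). Numbers 2 and 3 were not told apart: control 3 with double transgenic 2 reached 0.37, against 0.28 and 0.21 for same numbers. Pairs 2 and 3 are therefore pairs by title only. With the number as a block in the fit, 7 of the 33 genes passed (21.2%, with 14.2% of all genes), 6 downward (18.2%, with 9.05% of all genes) and 1 upward (with 5.16% of all genes). The genes that joined Mpp1 and Aqp1 were Epb4.9, Stom, Epb4.1, Ank1 and Cd44. Taken as same-numbered pairs, 15 of the 33 genes were lower in all 3 pairs, or 45.5%, against 23.2% of all genes. That share was not particular to the set. It was 45% for erythroid markers outside the membrane, 48.8% for other surface proteins and transporters and 22.2% for other skeleton genes. Another 4 genes were higher in all 3 pairs, or 12.1%, against 31.3% of all genes, and 54.5% of all genes had 3 pairs of 1 sign. The remaining 14 had pairs of both signs. The median over the members was -0.51 in pair 1, -0.36 in pair 2 and -0.06 in pair 3.

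**Figure D2:**
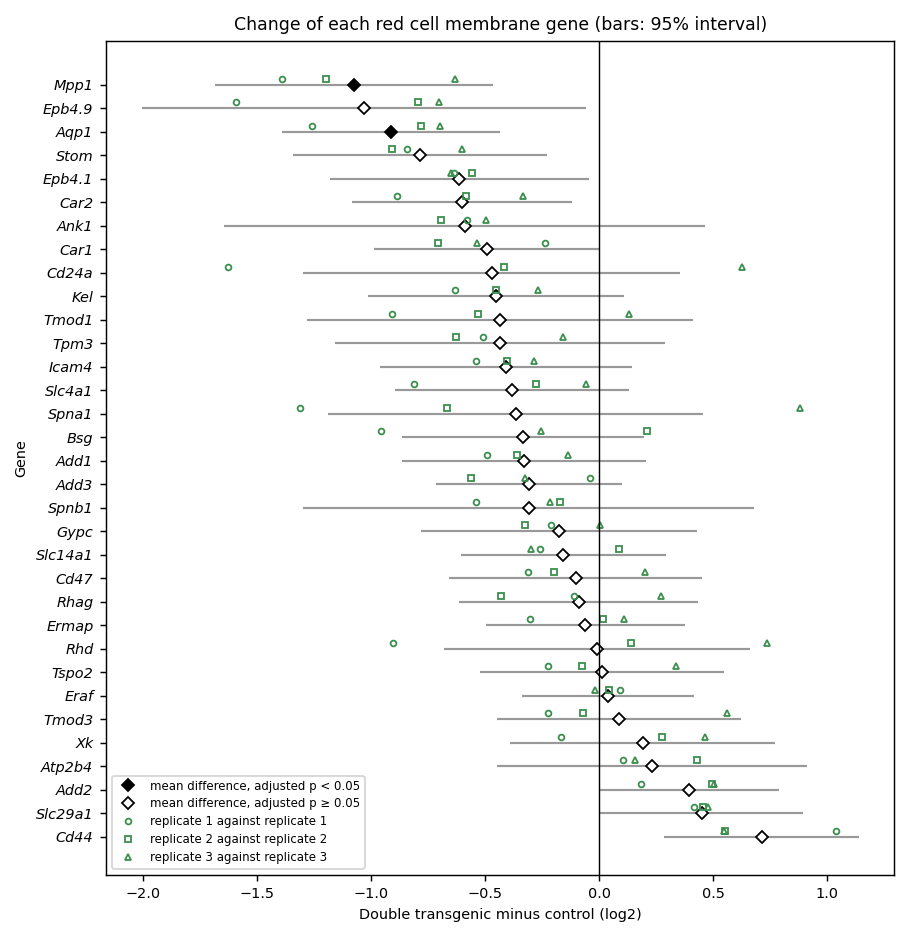
Change of each red cell membrane gene (rows, in order of size) as double transgenic minus control on the log2 scale, with diamonds for the mean difference, bars for its 95% interval and green marks for each same-numbered pair. Filled diamonds mark Mpp1 and Aqp1, the calls of the unblocked fit, and 15 genes have all 3 pair marks left of 0.

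Among the proteins that anchor the skeleton to the bilayer, Mpp1 fell. Its protein p55 binds protein 4.1 and glycophorin C. Mpp1 stood at 10.92, 11.19 and 11.19 in control replicates 1 to 3 and at 9.53, 9.99 and 10.56 in double transgenic replicates 1 to 3. Every double transgenic array lay below every control. The change was -1.07 (SE 0.27, 95% interval -1.69 to -0.46, adjusted p = 0.0419, and 0.0181 with the block). The call was lost when any 1 control or double transgenic replicate 1 or 2 was left out (adjusted p from 0.0606 to 0.149), with median scaling (-0.92, adjusted p = 0.0678), with dim probes kept in (adjusted p = 0.101) and with both replicate 1 arrays left out (-0.92, adjusted p = 0.0525). A second Mpp1 probe was not detected on any array.

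Slc4a1, which encodes band 3, could be read only in part. Its probe stood at 14.92, 14.95 and 14.93 in controls and at 14.11, 14.67 and 14.87 in double transgenic livers. The groups did not overlap, though double transgenic replicate 3 lay within 0.06 of its control. The difference of -0.38 (SE 0.22, 95% interval -0.90 to 0.13) did not pass (adjusted p = 0.36). Before normalization the Slc4a1 signal was 33092, 31809 and 30103 units in controls and 17908, 26990 and 29775 in double transgenic livers, where the brightest probe of an array read 37637 to 42784. Slc4a1 lies 0.53 below the brightest normalized value, so a difference at this end of the scale may be flattened. Gypc, the gene of glycophorins C and D, overlapped between groups and stood at -0.18 (95% interval -0.78 to 0.43).

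The spectrin and ankyrin genes varied more between replicates than between groups. Ank1, the erythroid ankyrin, stood at 11.00, 12.29 and 12.36 in controls and at 10.42, 11.60 and 11.87 in double transgenic livers. Each double transgenic array lay below the control of the same number, with differences of -0.58, -0.69 and -0.50, while replicate 1 was more than 1 log2 unit below the others in both groups. The difference was -0.59 with an SE of 0.46 and an adjusted p of 0.492 in the unblocked fit, and with an SE of 0.14 and an adjusted p of 0.0424 with the block. A dimmer second Ank1 probe stood at -0.01, and without double transgenic replicate 1 Ank1 was at -0.15 (adjusted p = 0.843).

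Spnb1, erythroid beta spectrin, had the same layout, with 12.46, 13.48 and 13.55 in controls and 11.92, 13.30 and 13.34 in double transgenic livers. Its difference of -0.31 did not pass in either fit (adjusted p = 0.722, and 0.218 with the block). Spna1, erythroid alpha spectrin, did not follow its partner. It read 8.93, 8.40 and 7.74 in controls and 7.61, 7.73 and 8.61 in double transgenic livers, with pair differences of -1.31, -0.67 and 0.88, so the pairs disagreed in sign. The 95% interval of Spna1, -1.19 to 0.45 spans both directions.

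Epb4.2, whose product binds band 3 and ankyrin, was not detected on any of the 6 arrays. Its only probe gave signals of 111 to 126, below the median signal of every array (137 to 144). No statement about its level follows from that probe. The 250 bases before the annotated start of Epb4.2 are shown with those of Aqp1, Mpp1 and Cd44 further down.

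The junctional complex group, with Stom counted in it, had 9 measured genes, of which 7 were lower on average and 0 were called. Of the 9 genes 3 had an unadjusted p below 0.05 (33.3%, against 22.8% of all genes). Stom, whose protein is not among the junction proteins named above, was among these 3, so that share depends on its placement. The median of the 9 genes was -0.43. The largest difference was in Epb4.9, which encodes dematin, an actin bundling protein. Epb4.9 stood at 11.95, 12.61 and 12.71 in controls and at 10.36, 11.82 and 12.01 in double transgenic livers. The groups overlapped by a narrow margin, since double transgenic replicate 3 exceeded control replicate 1. The change of -1.03 had an SE of 0.43 (adjusted p = 0.195), and an SE of 0.21 with the block (adjusted p = 0.0284). A second detected Epb4.9 probe stood at -1.23 (SE 0.33, adjusted p = 0.0535 over all probes). Without double transgenic replicate 1 alone Epb4.9 was at -0.51 (adjusted p = 0.268) and no longer the largest of the group, with Stom at -0.60. Without replicate 1 of both groups Epb4.9 was at -0.75 and passed (adjusted p = 0.0334).

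Epb4.1, the gene of protein 4.1, which joins spectrin to actin, showed a smaller and more even difference. It stood at 9.05, 9.55 and 9.68 in controls and at 8.41, 8.99 and 9.03 in double transgenic livers, without overlap. The pairs differed by -0.64, -0.56 and -0.65. The mean of -0.61 passed with the block (SE 0.14, adjusted p = 0.0363) and not without it (SE 0.25, adjusted p = 0.185). All 3 detected probes of Epb4.1 were negative, from -0.61 to -0.40.

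Stom, which encodes stomatin, an integral protein of the inner leaflet, stood at 5.89, 6.32 and 6.39 in controls and at 5.04, 5.41 and 5.79 in double transgenic livers. The groups did not overlap. The difference of -0.79 did not pass without the block (adjusted p = 0.0929) and passed with it (adjusted p = 0.0217). Both values lie near the background, since 2 of the 3 double transgenic arrays detected this probe, and a second probe of Stom stood at -0.26. Without background correction Stom itself was at -0.27 (adjusted p = 0.19).

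The adducins cap the fast-growing actin ends. Add1 was at -0.33 and Add3 at -0.31 (adjusted p = 0.448 and 0.35), each lower in all 3 pairs, with 5 and 3 detected probes of 1 sign. Add2, the beta subunit of red cell adducin, was at 0.39 (SE 0.17, adjusted p = 0.22), with 10.31, 10.21 and 10.05 in controls and 10.50, 10.71 and 10.56 in double transgenic livers. The double transgenic arrays all lay above the controls. Probes of Add2 disagreed: a second one read 0.57, and one filed under the older clone name 2900072M03Rik read -0.81 (adjusted p = 0.0578 over all probes), so the direction of Add2 depends on the probe. Tropomyosin gene Tpm3 was at -0.43 and tropomodulin gene Tmod1, which caps the slow-growing ends, at -0.44, both with overlapping groups. Tmod3, the other tropomodulin, was at 0.09.

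Genes of blood group antigens and of the Rh complex were the flattest group. None of the 7 was called, none had an unadjusted p below 0.05, all had overlapping groups, and their median was -0.09. Rhag, the ammonium channel that carries the Rh proteins, ranged from 10.95 to 11.46 in controls and from 10.84 to 11.48 in double transgenic livers, a difference of -0.09 (95% interval -0.62 to 0.43). Its 3 probes stood between -0.09 and 0.01. Rhd, the Rh protein of the mouse, was at -0.01 (95% interval -0.68 to 0.66), and its pairs read -0.91, 0.14 and 0.73.

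Kel and Xk, whose proteins form 1 complex, stood at -0.45 (95% interval -1.01 to 0.11) and 0.19 (95% interval -0.39 to 0.77). Kel was lower in all 3 pairs and Xk in 1 of them. Icam4, an adhesion protein and the Landsteiner-Wiener antigen, was at -0.41 and lower in all 3 pairs. Ermap, the Scianna antigen, was at -0.06 and Cd47, the signal that protects cells from phagocytosis, at -0.10. None of the 7 intervals excludes 0, and those of Ermap, Rhag, Rhd, Cd47, Xk and Icam4 lie within a 2-fold change in either direction.

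Of 5 channel, transporter and pump genes Aqp1 fell and 4 did not pass. Aqp1 encodes aquaporin 1, the water channel that carries the Colton antigen and is also made in endothelium. It stood at 11.65, 11.78 and 11.49 in controls and at 10.39, 11.00 and 10.79 in double transgenic livers. All 3 double transgenic arrays lay below all controls. The change was -0.91 (SE 0.21, 95% interval -1.39 to -0.43, adjusted p = 0.0309, and 0.0213 with the block). The other Aqp1 probes stood at -1.07 and -0.98, and all 3 were called over all probes, of which 8.1% were called. The Aqp1 call was lost without any 1 control and without double transgenic replicate 3 (adjusted p from 0.0629 to 0.139), with median scaling (-0.78, adjusted p = 0.0741), with dim probes kept in (adjusted p = 0.0502) and with both replicate 1 arrays left out (-0.74, adjusted p = 0.0502).

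Of 9 measured endothelial markers 6 had a lower mean in double transgenic livers, with a median of -0.47. Lyve1, a receptor of sinusoidal endothelium, fell (-0.88, adjusted p = 0.0263) and was the 1 call of the list (11.1%, against 8.95% of all genes). Stab2 and Tek, at -0.77 and -0.73, had groups without overlap and passed with the block (adjusted p = 0.0261 and 0.0487) but not without it (adjusted p = 0.103 and 0.107). Flt1, Emcn and Pecam1 had higher means in double transgenic livers (0.44, 0.44 and 0.18), and none of them passed in either fit. The Flt1 groups did not overlap either. The mean level of the list was 7.68 to 7.77 in controls and 7.26 to 7.78 in double transgenic livers. The part of endothelial RNA in the Aqp1 result was not tested.

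Slc29a1, the nucleoside transporter ENT1, was at 0.45 (SE 0.20, 95% interval 0.0019 to 0.90) and did not pass (adjusted p = 0.217). It read 11.07, 11.43 and 11.33 in controls and 11.48, 11.89 and 11.81 in double transgenic livers, without overlap, and its second probe stood at 0.58. Slc14a1, the urea transporter of the Kidd antigen, was at -0.16 (probes from -0.50 to -0.16). Tspo2, an erythroid cholesterol-binding protein, was at 0.01 (95% interval -0.52 to 0.55). Atp2b4, a plasma membrane calcium pump, was at 0.23, with levels of 5.22 to 6.36 that lie near the background.

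Of the antigens that mark erythroid maturation, Cd44 came closest to a call, and it was the highest change of the set. CD44 is an adhesion receptor that mouse erythroblasts lose as they mature and that white blood cells also carry. Cd44 stood at 8.55, 8.66 and 8.61 in controls and at 9.59, 9.21 and 9.15 in double transgenic livers. All double transgenic arrays lay above all controls, replicate 1 highest. The difference of 0.71 (SE 0.19, 95% interval 0.29 to 1.14) missed the threshold without the block (adjusted p = 0.0512) and passed with it (adjusted p = 0.0408), with median scaling (0.84, adjusted p = 0.0251), with dim probes kept in (adjusted p = 0.0475) and with the mean of its probes (0.73, adjusted p = 0.0312). Its brighter detected probes stood at 0.71 and 0.76. The dimmest kept probe (0.73) was detected on 3 arrays. Before normalization it read 131, 126 and 146 units in controls and 160, 160 and 169 in double transgenic livers. That probe may have passed the filter only through the group where it is high, so it adds no support. The mean of probes includes it. Another 6 probes of Cd44 were not detected on any array. Markers of progenitors, which also carry CD44, had 1 rise in 10 (Gata2), or 10%, against 2.53% of all genes. Mean levels of the progenitor list were 8.32 to 8.64 in controls and 8.71 to 8.95 in double transgenic livers. Macrophage markers fell in 10 of 14 (71.4%, against 6.42% of all genes), from a mean level of 8.76 to 8.88 to one of 6.96 to 7.57. The part of either in the Cd44 difference was not tested.

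Cd24a, the heat-stable antigen of young erythroblasts, read 8.14, 7.44 and 7.17 in controls and 6.51, 7.03 and 7.80 in double transgenic livers. Its pair differences of -1.63, -0.42 and 0.63 disagreed in sign, and its mean of -0.47 did not pass (adjusted p = 0.484). Bsg, which encodes basigin, was detected on 2 controls and 1 double transgenic array and stood at -0.33, with values near the background.

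The carbonic anhydrases of the red cell, which turn carbon dioxide into bicarbonate for band 3, did not pass with or without the block. Car2 stood at 13.11, 13.21 and 13.24 in controls and at 12.22, 12.63 and 12.90 in double transgenic livers, without overlap (-0.60, SE 0.21, adjusted p = 0.131, and 0.0628 with the block). Car1 was at -0.49 (SE 0.22, adjusted p = 0.218), and passed without replicate 1 of both groups (-0.62, adjusted p = 0.0465). With array weights in the limma fit Car1 (-0.63, adjusted p = 0.0230) and Car2 (-0.54, adjusted p = 0.0387) passed. Eraf, the chaperone of free alpha globin, read 14.98, 14.88 and 15.04 in controls and 15.07, 14.92 and 15.02 in double transgenic livers. Its probe lies 0.28 below the brightest value, so neither a rise nor a fall can be read with confidence, and its difference of 0.04 (95% interval -0.34 to 0.42) does not show that Eraf was unchanged.

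In all, 10 of the 33 genes had groups that did not overlap, 7 lower and 3 higher in double transgenic livers. That is 30.3%, close to the 28.5% of all genes (13.7% lower and 14.8% higher). For 19 genes the 95% interval lay within a 2-fold change in either direction, and 13 intervals reached beyond a 2-fold lower level. Those of Mpp1 and Aqp1, which were called, are among the 13. In the rest, which were not called, falls of that size could have been missed. The median SD between arrays of 1 group was 0.32 for the members and 0.28 for all genes.

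Replicate 1 stood apart from replicates 2 and 3 in both groups. In the double transgenic group 27 of the 33 genes were lower in replicate 1 than in the mean of the others (median -0.60), and in the controls 23 were (median -0.27). The departure had the same sign in both groups for 25 genes, 21 lower and 4 higher, and opposite signs for 8. Epb4.9 (-0.71 in controls and -1.56 in double transgenic livers), Spnb1 (-1.05 and -1.40), Ank1 (-1.33 and -1.31) and Tmod1 (-0.57 and -1.28) had the largest downward departures in the double transgenic group. Spna1, Cd24a and Rhd went up in control replicate 1, by 0.86, 0.83 and 0.71, and were lower in double transgenic replicate 1. Across the 33 genes the departures correlated at 0.53, a description only, with all genes at 0.54.

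**Figure D3:**
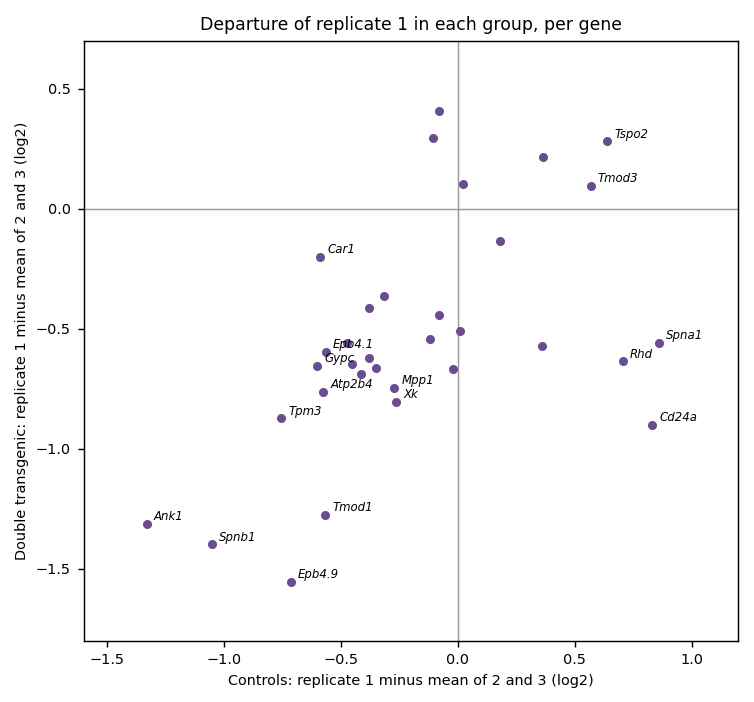
For each of the 33 genes, replicate 1 minus the mean of replicates 2 and 3 on the log2 scale, in controls (horizontal axis) and double transgenic livers (vertical axis), with lines at 0. The 21 genes at lower left are lower in replicate 1 of both groups, with Ank1, Spnb1 and Epb4.9 farthest out, and Spna1, Rhd and Cd24a are farthest out at lower right.

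Control replicate 1 is also the Vav-iCre control, so in the controls the departure and the genotype cannot be told apart. In a fit of 3 genotypes, which takes the spread of the single Vav-iCre array from the replicated genotypes, limma called none of the members between the Vav-iCre and the R26-LSL-KITD816V controls (lowest adjusted p = 0.507), with 2 at an unadjusted p below 0.05. It called none of all genes either (0%), with 1190 at an unadjusted p below 0.05. The departure in double transgenic replicate 1, which shares its genotype with replicates 2 and 3, has no such genotype beside it.

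Other genes of the membrane gave 2 lists. Of 27 measured paralogues and other skeleton genes 2 fell and none rose (7.41% called, against 8.95% of all genes). Their median was 0.01. Epb41l4b, a relative of protein 4.1, fell by 1.48 (SE 0.19, adjusted p = 0.00224) and lay at 7.54 to 7.73 in controls and 5.90 to 6.33 in double transgenic livers. Sptan1, the alpha spectrin of cells outside the red lineage, fell by 0.84 (SE 0.19, adjusted p = 0.0257), in contrast to Spna1, which did not pass. The difference between these spectrin genes was not tested. The call of Sptan1 was lost when control replicate 2, control replicate 3 or double transgenic replicate 2 was left out (adjusted p from 0.104 to 0.125). Actb, the actin of the junction, stood at 0.02 (adjusted p = 0.971), and its sign changed under some settings. With the block 5 of these genes passed, 3 lower and 2 higher (18.5%, against 14.2% of all genes). Without background correction Epb41l4b was at -0.74 and still passed (adjusted p = 0.00481).

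Of 43 other surface proteins and transporters 6 fell and 2 rose (18.6% called, against 8.95% of all genes). Their median was -0.08. With the block 14 passed, 10 lower and 4 higher (32.6%, against 14.2% of all genes). Art4, the carrier of the Dombrock antigen, read 10.73, 10.61 and 10.56 in controls and 9.33, 9.35 and 9.40 in double transgenic livers, and fell by 1.27 (SE 0.16, adjusted p = 0.0024). All of its arrays were far apart between groups and close within them, and its call held under all 19 alternatives. The sodium pump subunit Atp1b1 fell by 2.29 (SE 0.31, adjusted p = 0.00307). The ammonium transporter Rhbg, a relative of Rhag known from epithelia, fell (adjusted p = 0.00836), and 1 double transgenic array alone detected it. The size of its fall is uncertain: it was -1.98 (SE 0.34) here and between -2.58 and -0.82 over the alternatives. The glucose transporter Slc2a4 fell by 1.16 (SE 0.21, adjusted p = 0.0111). Without background correction Atp1b1 was at -1.20 and Slc2a4 at -0.44, and both still passed (adjusted p = 0.00394 and 0.0394). No double transgenic array detected the potassium chloride cotransporter Slc12a7, which was at least 2.13-fold lower in the main processing (adjusted p = 0.00979). That bound sets the control mean against the higher, on each array, of its own value and the lowest detected signal. It does not hold for other processing: over the alternatives the Slc12a7 change lay between -1.48 and -0.44.

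The rises were the glycerol channels Aqp3, at 1.15 (SE 0.22, adjusted p = 0.0137), and Aqp9, at 0.97 (SE 0.21, adjusted p = 0.0261), so Aqp1 and these aquaporins had opposite signs. Aqp9 and Xkr8, a lipid scramblase at -0.97 (SE 0.23, adjusted p = 0.0362), were singled out after their values were seen. Calls of Aqp3, Slc2a4, Aqp9 and Xkr8 were lost without control replicate 2 (adjusted p from 0.0614 to 0.128) and without double transgenic replicate 2 (0.0521 to 0.132). Those of Xkr8 and Slc12a7 were lost without background correction (adjusted p = 0.103 and 0.0517). Both were also lost in the authors' value table (adjusted p = 0.103 and 0.0516). The call of Xkr8 was lost besides without control replicate 3 (adjusted p = 0.139), with dim probes kept in (adjusted p = 0.0716) and when the normexp offset was 50 (adjusted p = 0.0592), and those of Aqp9 and Xkr8 without double transgenic replicate 3 (adjusted p = 0.0729 and 0.103). Aqp9 was lost as well without control replicate 1 and without control replicate 3 (adjusted p = 0.054 and 0.0519).

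Hepatoblast and macrophage markers had larger median changes than the membrane genes. All 17 measured hepatoblast markers fell (100%, against 6.42% of all genes), with a median of -2.04. Their mean level was 12.30 to 12.50 in controls against 9.98 to 10.80 in double transgenic livers. Atp1b1, Rhbg and Slc2a4 are also expressed in cells outside the red lineage, and the part of hepatoblast or macrophage RNA in their falls was not tested. Of 20 erythroid markers outside the membrane 2 rose and 2 fell (20% called, against 8.95% of all genes). With the block 35% passed, against 14.2% of all genes. The median of the erythroid list was -0.15, and its mean level was 12.25 to 12.42 in controls against 11.89 to 12.47 in double transgenic livers. Double transgenic replicate 1 held the lowest of these levels, as it did for the membrane genes (9.78, against 10.24 and 10.41 in replicates 2 and 3). Gata1, the erythroid transcription factor, stood at 9.31 ± 0.04 and 9.30 ± 0.22 (SD, n = 3).

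**Figure D4:**
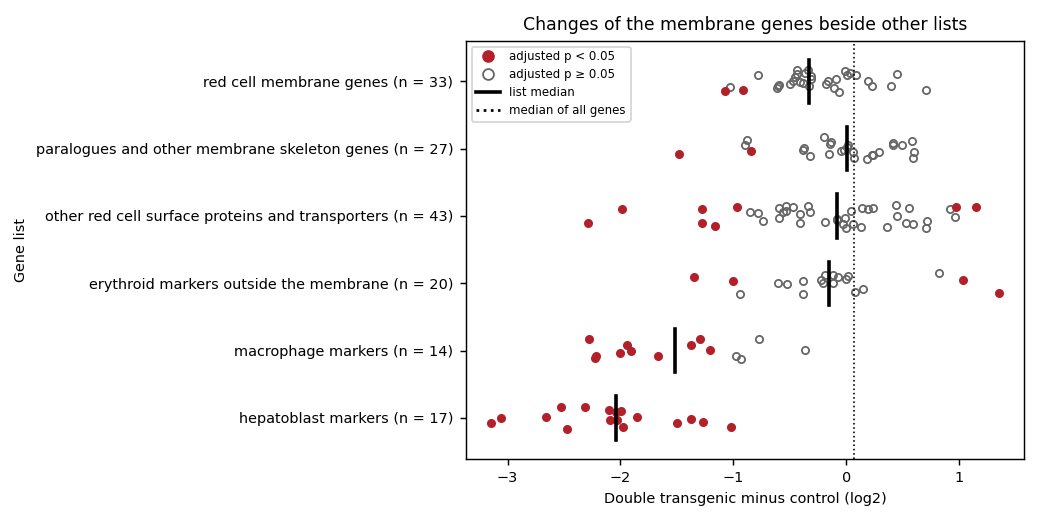
Change of each gene as double transgenic minus control on the log2 scale, by gene list, with filled red points for an adjusted p below 0.05, thick bars for list medians and a dotted line at the median of all genes, 0.07. The median of the membrane genes (-0.33) lies far to the right of those of the macrophage (-1.52) and hepatoblast markers (-2.04), though the ranges overlap. Of the membrane genes 2 are red.

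The windows before the annotated starts of 4 members are shown because Aqp1 and Mpp1 fell, Cd44 was the highest change and Epb4.2 was not detected. Each is the 250 bases before the start (RefSeq, GRCm38.p6), 5′ to 3′ on the gene's strand. Capitals mark AGATAA, which holds the core read by GATA factors, and CACCC, the core of the boxes read by Kruppel-like factors, on either strand (TTATCT and GGGTG).
Aqp1, chr6:55336049-55336298, plus strand: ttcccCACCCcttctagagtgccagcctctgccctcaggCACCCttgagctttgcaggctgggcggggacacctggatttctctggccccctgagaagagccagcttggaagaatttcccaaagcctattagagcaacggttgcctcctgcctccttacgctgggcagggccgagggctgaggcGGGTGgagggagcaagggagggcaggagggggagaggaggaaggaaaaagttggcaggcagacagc
Mpp1, chrX:75131017-75131266, minus strand: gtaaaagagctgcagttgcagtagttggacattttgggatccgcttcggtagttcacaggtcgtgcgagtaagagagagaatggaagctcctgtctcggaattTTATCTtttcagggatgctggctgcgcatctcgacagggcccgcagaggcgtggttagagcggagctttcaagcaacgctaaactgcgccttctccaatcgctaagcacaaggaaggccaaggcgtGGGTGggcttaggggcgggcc
Cd44, chr2:102901666-102901915, minus strand: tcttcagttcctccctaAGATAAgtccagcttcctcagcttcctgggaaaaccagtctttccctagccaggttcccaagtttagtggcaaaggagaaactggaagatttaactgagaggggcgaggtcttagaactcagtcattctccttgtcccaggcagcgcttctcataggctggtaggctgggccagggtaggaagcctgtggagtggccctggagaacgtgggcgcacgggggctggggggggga
Epb4.2, chr2:121036878-121037127, minus strand: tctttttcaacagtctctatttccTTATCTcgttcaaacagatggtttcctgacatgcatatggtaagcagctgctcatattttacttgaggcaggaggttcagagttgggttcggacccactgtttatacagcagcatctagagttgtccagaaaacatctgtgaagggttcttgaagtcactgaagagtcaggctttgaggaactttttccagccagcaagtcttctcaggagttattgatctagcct

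The Aqp1 window held 3 CACCC matches and no AGATAA. The Mpp1 window held 1 of each, with AGATAA 142 to 147 bases before the start. Cd44 and Epb4.2 held 1 AGATAA each, at 228 to 233 and 221 to 226 bases before the start. No matches overlapped. Of the 34 members 22 had a window in the table, 35 windows in all. AGATAA was present in 9 of these 35 windows (25.7%), against 9.99% of all 32851 windows, and CACCC in 26 (74.3%), against 52% of all. Slc29a1 alone accounts for 8 of the 35 windows. Counted by gene, with a match in any window, AGATAA was present in 9 of 22 members (40.9%, against 11.4% of all genes with a window). CACCC was present in 17 (77.3%, against 54.5%). The 9 genes with AGATAA were Mpp1, Cd44, Epb4.2, Atp2b4, Tpm3, Rhd, Kel, Icam4 and Slc29a1, whose changes had both signs. A match is a string of letters in this window and is no evidence of binding.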

How the data were processed

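The deposited table holds a bead signal intensity per probe and array for 45281 probes, not log transformed and not normalized between arrays, and a detection p-value, per the file headers. Per the submitters' processing notes GenomeStudio was used, its version not being stated. A second deposited table, of the authors' processed intensity, differed from a quantile normalization of that signal by at most 0.303% and served as an alternative. With limma 3.58.1 in R 4.3.3 the background was corrected with neqc (negative controls inferred from detection p, offset 16), then quantile normalized and log2 transformed. Probes detected at p below 0.05 on at least 3 arrays were kept (17855), and each gene took its brightest kept probe. Old symbols were updated through RefSeq for 8359 probes. Groups were compared with lmFit and eBayes, two-sided. Deviations of same-numbered arrays from their group means correlated across genes at 0.54, 0.28 and 0.21 for numbers 1 to 3, each above 0.1, so the titles' numbers were used as a block in 1 alternative. Control 3 with double transgenic 2 reached 0.37 and control 2 with double transgenic 3 0.20, so replicates 2 and 3 were not told apart by number. Other alternatives changed background correction, scaling, the probe filter, the probe rule, weights, moderation and the arrays used. The steps were tested on simulated data. Having 3 arrays a group limits the precision. Members and lists were chosen with earlier results of these data known. All members are named. Of the other membrane lists at most 6 called genes each were to be named by adjusted p, with Actb, and Aqp9 and Xkr8 were added. Of marker lists counts, medians and a few tissue checks were planned, of which Alb was not analysed here. Afp, Lyve1, Stab2, Tek, Flt1, Emcn, Pecam1, Gata2, Hba-x, Hbb-bh1, Alas2 and Trim10 were named outside that plan. One gene of these lists is not reported here.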

Additional observations from a re-analysis of the deposited data

How the results depend on the processing

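The count of 2 called members became 1 with median scaling and 1 with no filter on dim probes, in both cases Cd44, with Mpp1 and Aqp1 lost. It became 7 with the replicate block and 8 with array weights, and ranged from 0 to 1 when single arrays were left out. Cd44 joined and made it 3 without background correction, with a normexp offset of 50, in the authors' value table and with the mean of probes. Without replicate 1 of both groups it was 3 as well, but the calls were Epb4.9, Epb4.1 and Car1, with Mpp1 and Aqp1 lost. The other skeleton genes went from 2 to 4 without background correction, with a normexp offset of 50, in the authors' value table and with no filter, to 5 with the replicate block, 10 with array weights and 6 without replicate 1 of both groups, and to 1 to 3 without single arrays. The other surface genes went from 8 to 14 with the replicate block, 17 with array weights and 4 to 9 without single arrays. All genes went from 1097 to 1743 with the block, 2748 with array weights, 1828 without replicate 1 of both groups and 555 to 1397 without single arrays. The members' median kept its sign under all 19 alternatives (-0.48 to -0.14). Some differences that never passed changed sign, those of Cd24a (-0.47), Spna1 (-0.37) and Spnb1 (-0.31) among them, and no called gene did. With array weights Actb was at -0.030 and Rhd at 0.26. With cyclic loess Tmod3 was at -0.017, Tspo2 at -0.057, Eraf at -0.071 and Actb at -0.10. With the mean of probes Actb was at -0.23, and with median scaling Ermap was at 0.044 and Rhag at 0.059. Without replicate 1 of both groups Actb was at -0.052, Cd47 at 0.00095, Ermap at 0.061, Cd24a at 0.10, Spna1 at 0.11 and Rhd at 0.44. Without single arrays Actb ranged from -0.13 to 0.12, Rhd from -0.26 to 0.22, Eraf from -0.0060 to 0.081, Tspo2 from -0.17 to 0.22, Rhag from -0.27 to 0.048, Tmod3 from -0.032 to 0.28, Gypc from -0.38 to 0.040, Ermap from -0.14 to 0.087, Cd47 from -0.28 to 0.12, Spnb1 from -0.66 to 0.16 and Atp2b4 from -0.034 to 0.49. The causes were not tested. The chip could not be a block, since all arrays shared 1. Signal near background limits Stom, Bsg and Atp2b4, and signal near the brightest value limits Slc4a1 and Eraf.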
